A study of Mus musculus with 3 samples.

Results

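MiR-183, miR-96 and miR-182 are microRNAs (miRNAs) made from 1 gene cluster that is active in sensory cells. Their 6 mature forms, a 5p and a 3p strand from each of 3 hairpins, were selected by name from the 1915 mature miRNAs counted in the developing mouse retina. All 6 had reads in the 3 libraries. They were also among the 648 miRNAs that passed a filter on low values, a mean level of 1 RPM or more, where RPM is the number of reads after the miRNA reads of each library have been scaled to the same total. The libraries came from the retinas of C57BL/6 mice (C57BL/6J in the study's methods), for which the labels name no treatment, at postnatal day 1 (P1), day 7 (P7) and day 17 (P17). Each library was made from the pooled retinas of 5 eyes. With 1 library per age there is no replicate check of any change with age, and intervals cover counting error only. Without molecular identifiers several reads can come from 1 molecule, so the intervals can be too narrow even for that error.

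A miRNA is cut as a duplex from a hairpin, and 1 strand of the duplex, the guide, is usually kept in an Argonaute protein and pairs through its seed, bases 2 to 8, with messenger RNAs. The other strand, the passenger, is usually degraded. The miR-183 cluster is known from photoreceptors, from hair cells of the inner ear and from olfactory neurons. In the mouse retina it is abundant in photoreceptors, its loss leads to photoreceptor degeneration, and its level in the adult retina follows light. Changes in the seed of miR-96 cause progressive hearing loss. Between P1 and P17 the last photoreceptors are born, outer segments grow and the eyes open.

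The 3 hairpins lie on the minus strand of chromosome 6 in GRCm38, the assembly also called mm10. They are transcribed in the order miR-183 (gene Mir183, 30169668 to 30169737), miR-96 (Mir96, 30169446 to 30169551) and miR-182 (Mir182, 30165918 to 30165992). MiR-183 and miR-96 are 116 bases apart, miR-96 and miR-182 are 3453 bases apart, and the whole cluster spans 3820 bases. In RefSeq all 3 hairpins lie within the span of a long non-coding RNA gene, Mirc35hg (30158640 to 30174125). In GENCODE vM21 no protein-coding gene overlaps them, the nearest annotated neighbours being Nrf1 on one side and the long non-coding RNA Rncr4 on the other. The RefSeq mature sequences are shown because the 5p seeds set which sites each miRNA can pair with. They are written 5′ to 3′ with the seed in capitals.
mmu-miR-183-5p: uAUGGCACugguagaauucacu
mmu-miR-96-5p: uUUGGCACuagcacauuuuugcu
mmu-miR-182-5p: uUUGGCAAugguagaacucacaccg
mmu-miR-183-3p: gUGAAUUAccgaagggccauaa
mmu-miR-96-3p: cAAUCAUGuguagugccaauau
mmu-miR-182-3p: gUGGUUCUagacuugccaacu

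The 3 guide seeds differ by single bases. Counted from the 5′ end of the miRNA, the seed of miR-96-5p differs from that of miR-183-5p by U2A and from that of miR-182-5p by C8A. The seeds of miR-182-5p and miR-183-5p differ by U2A and A8C. MiR-96-5p and miR-182-5p therefore share bases 2 to 7, and miR-96-5p and miR-183-5p share bases 3 to 8. Over the whole length, seed included, the order is another one. Compared base by base from the 5′ end, miR-182-5p and miR-183-5p were equal at 18 of 22 bases, whereas miR-96-5p matched miR-183-5p at 13 of 22 and miR-182-5p at 12 of 23. The DNA sites complementary to the seeds read GTGCCAT for miR-183-5p, GTGCCAA for miR-96-5p and TTGCCAA for miR-182-5p. No passenger has the same bases 2 to 7 as a guide. The only other miRNA in the files with a member's full seed was miR-3475-5p, which shares that of miR-96-3p and had 0 reads in each library. MiR-1271-5p, which has the full seed of miR-96-5p in RefSeq, is not among the 1915 counted miRNAs under that name. No other RefSeq mouse miRNA lay closer to a member than 7 mismatches in a comparison from the first base, without gaps and over the shorter length. Likeness shifted along the sequence, and miRNAs without a RefSeq sequence, were not covered. All 3 guides begin with U, as did 40.2% of the 1623 miRNAs in the files with a RefSeq sequence, whereas the passengers begin with G, C and G.

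The hairpins are shown to place both strands, with the 5p and then the 3p strand in capitals.
miR-183 hairpin: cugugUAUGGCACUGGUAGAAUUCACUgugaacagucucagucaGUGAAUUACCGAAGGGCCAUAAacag
miR-96 hairpin: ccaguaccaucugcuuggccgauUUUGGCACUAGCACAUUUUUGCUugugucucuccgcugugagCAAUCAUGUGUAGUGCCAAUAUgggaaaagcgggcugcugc
miR-182 hairpin: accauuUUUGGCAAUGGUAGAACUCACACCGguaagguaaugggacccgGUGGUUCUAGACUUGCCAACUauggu

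The libraries held 11426320 to 12759995 miRNA reads, so that 3 reads, taken as the lowest level the depth can show, correspond to 0.235 to 0.263 RPM. RPM is the read count divided by the total of the miRNA reads of the library and is a share, so a rise of the cluster lowers the RPM of every other miRNA. As a check of the tissue, miR-124-3p and miR-9-5p, listed for retinal neurons, together had 86788 to 145803 RPM. Most of this was miR-9-5p, with 144259 RPM at P1, 125762 at P7 and 74010.5 at P17. MiR-124-3p went the other way, with 1544, 2055 and 12777 RPM, so the sum does not follow both markers. The 6 listed markers of cornea, lens, muscle and blood together had 155 to 620 RPM, highest at P17, and none of them was at 0 reads. Most of the P17 sum was miR-184-3p of the cornea and lens, with 569 RPM. The other listed marker of cornea and lens, miR-205-5p, was lower at P17 than at P1. It had 2.71, 0.31 and 0.69 RPM (31, 4 and 8 reads) at P1, P7 and P17. MiR-204-5p and miR-211-5p, which are typical of the pigment epithelium and ciliary margin and are also found in retinal neurons, together had 7226 to 15211 RPM, lowest at P7. The part of other tissues in the results on the cluster was not tested.

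The guides of the cluster held a small part of the library at P1, and 1 of them led it at P7 and P17. For miR-182-5p, the most abundant member, 471813 reads were counted in the P1 library, against 2311935 at P7 and 1654712 at P17. This gave 41292 RPM in the P1 library (95% Wilson interval 41177 to 41407), 181186 RPM in the P7 library (180975 to 181398) and 141917 RPM in the P17 library (141717 to 142117). It was in place 6 of all miRNAs at P1, where miR-9-5p led with 144259 RPM, and in place 1 at P7 and P17. MiR-182-5p was thus highest at P7 and lowest at P1.

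MiR-183-5p had 316510, 1042897 and 1418401 reads in the libraries of P1, P7 and P17. Its RPM was 27700 (27605 to 27795), then 81732 (81582 to 81882), then 121650 (121462 to 121837), in places 10, 3 and 2. It was the member whose highest level was at P17. MiR-96-5p had 101259, 529240 and 438104 reads, or 8862 RPM (8808 to 8916), 41477 RPM (41367 to 41586) and 37574 RPM (37465 to 37683), in places 22, 7 and 7. Like miR-182-5p it was highest at P7, and it was the least abundant guide at each age. The order miR-182-5p, miR-183-5p, miR-96-5p was the same in the 3 libraries. Ligation and amplification favour some small RNA ends, so the order is one of reads and not of molecules.

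The passengers were far rarer, with 1 read for every 81.8 to 1462 reads of their guide, and followed a pattern of their own. MiR-182-3p had 5770, 13334 and 7613 reads with increasing age, or 505, 1045 and 653 RPM. MiR-183-3p had 697, 1353 and 970 reads, or 61, 106 and 83.2 RPM. MiR-96-3p had 904, 1579 and 814 reads, or 79.1, 124 and 69.8 RPM. All 3 passengers were highest at P7 and were lower again at P17. Of the cluster's reads they made up 0.822% in the P1 library, 0.417% in the P7 library and 0.267% in the P17 library.

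**Figure D1:**
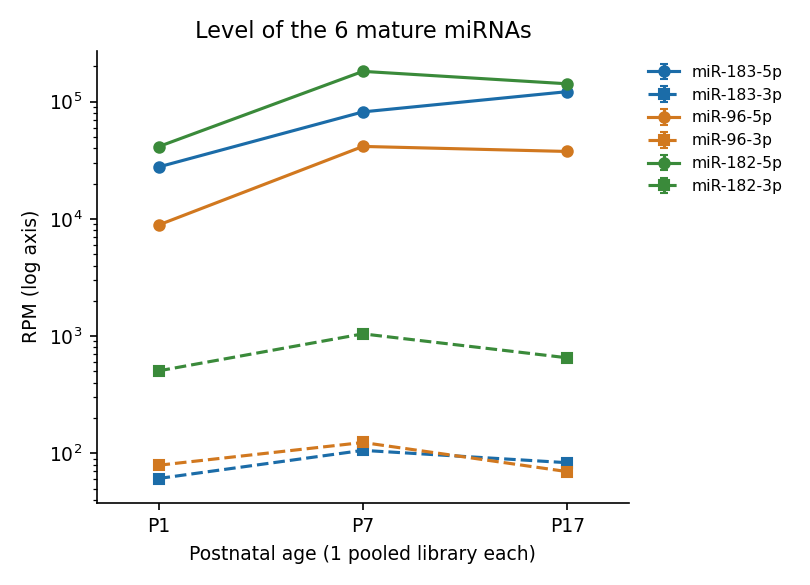
RPM (log axis) of the 6 mature miRNAs at P1, P7 and P17, 1 pooled library per age; filled circles with solid lines are 5p and squares with dashed lines are 3p forms, and bars are 95% Wilson intervals, mostly smaller than the symbols. The 5p forms rise between P1 and P7 and only miR-183-5p rises further by P17, whereas the 3p forms peak at P7.

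From P1 to P7 the 3 guides were among the most strongly up-regulated miRNAs. On the log2(RPM + 1) scale miR-96-5p rose by 2.23, miR-182-5p by 2.13 and miR-183-5p by 1.56, in places 4, 5 and 8 of 648. As ratios of RPM they correspond to 4.68-fold (exact 95% binomial interval 4.65 to 4.71), 4.39-fold (4.37 to 4.40) and 2.95-fold (2.94 to 2.96). Among the passengers the change was 1.05 for miR-182-3p, 0.79 for miR-183-3p and 0.64 for miR-96-3p. Over 2-fold higher were thus 4 of the 6 members, while 3.09% of the 648 miRNAs passed the same criterion and 44.8% were over 2-fold lower. MiR-182-3p was just past 2-fold (2.07-fold, 2.01 to 2.13) and miR-183-3p just short of it (1.74-fold, 1.59 to 1.91). Of the 94 miRNAs with at least 1000 RPM at P1, a limit chosen after the values were seen, 5 were over 2-fold higher at P7, namely the 3 guides, miR-99a-5p and the endothelial miR-126a-3p. Of the RPM gained by the 223 miRNAs that were higher at P7, the members gained 82.2%, with 50.6% gained by miR-182-5p. These percentages hold for RPM only, in which a rise of the cluster lowers all others, and were not computed with another scaling.

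The cluster as a whole held 7.85% of the miRNA reads in the P1 library (95% Wilson interval 7.83 to 7.87), 30.6% in the P7 library (30.5 to 30.6) and 30.2% in the P17 library (30.2 to 30.2). A gain of this size weighs on the RPM of the rest. The median log2 change of the 642 other miRNAs past the filter was -0.88 from P1 to P7, and -0.56 when the members were left out of the library total. With median-of-ratios size factors, which put the typical miRNA near 0, the guides rose by 3.19 (miR-96-5p), 3.09 (miR-182-5p) and 2.52 (miR-183-5p), and the split of all calls was 62 over 2-fold higher and 71 lower, against 20 and 290 with RPM. By this scaling all 6 members were over 2-fold higher, as were 9.57% of all miRNAs, with 11% lower. Relative to the median of all 648 miRNAs, which was -0.87 with RPM, the guides changed by 2.43 (miR-183-5p) to 3.09 (miR-96-5p) and the passengers by 1.91 (miR-182-3p), 1.65 (miR-183-3p) and 1.51 (miR-96-3p). Each member was therefore higher at P7 both as a share of reads and relative to the typical miRNA. Whether more cells express the cluster or each cell holds more of it cannot be told apart in whole retina.

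From P7 to P17 the summed level of the cluster hardly moved while its members parted. The log2 change of the sum was -0.02, close to the median of -0.05 for all miRNAs. MiR-183-5p was up-regulated by 0.57 (1.49-fold, 1.48 to 1.49), whereas miR-96-5p changed by -0.14 and miR-182-5p by -0.35. The passengers changed by -0.35 for miR-183-3p, -0.82 for miR-96-3p and -0.68 for miR-182-3p. MiR-183-5p was the only member with a positive change over this interval, under RPM and under each of the 4 other scalings tried. None of the 6 members passed 2-fold in this interval, in which 14% of all miRNAs were over 2-fold higher and 11.6% over 2-fold lower. Among all 648 changes, miR-183-5p was in place 150 and miR-182-5p in place 396, so neither stood apart from the rest.

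**Figure D2:**
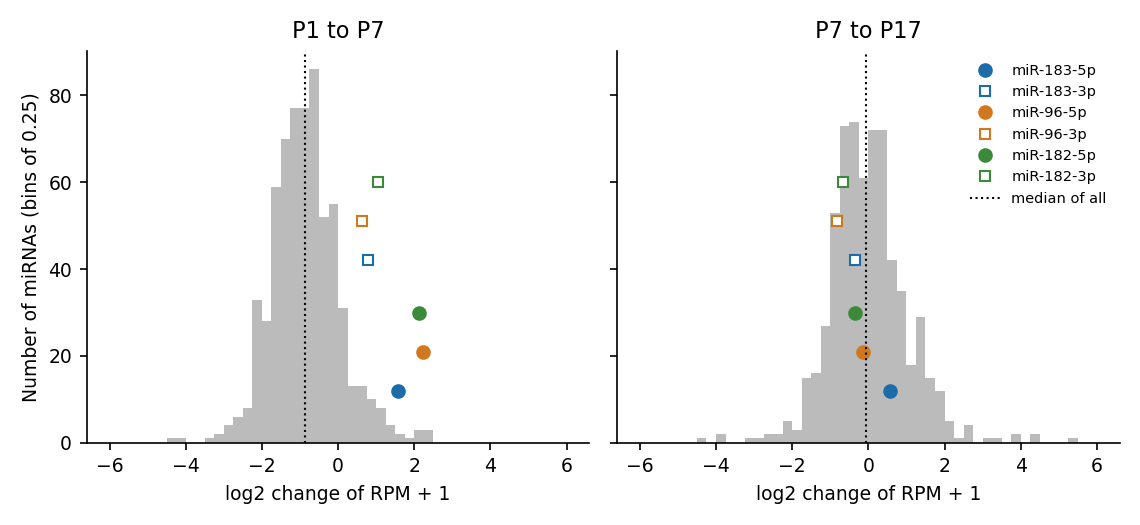
Histograms of the log2 change of RPM + 1 for the 648 miRNAs past the filter, from P1 to P7 (left) and from P7 to P17 (right), with the 5p (filled circles) and 3p members (open squares) drawn at their values at arbitrary heights and the median of all miRNAs as a dotted line. From P1 to P7 the 6 members lie between 0.64 and 2.23, right of the median of -0.87, and from P7 to P17 between -0.82 and 0.57, around the median of -0.05.

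Over the whole period miR-183-5p rose by 2.13, miR-96-5p by 2.08 and miR-182-5p by 1.78 on the log2 scale. These 3 members were over 2-fold higher, against 10.5% of all miRNAs higher and 46.8% lower. The passengers changed by 0.44 (miR-183-3p), 0.37 (miR-182-3p) and -0.18 (miR-96-3p). The sign for miR-96-3p depended on the scaling, since it was 0.85 with median-of-ratios size factors. With these, miR-183-3p (1.47) and miR-182-3p (1.41) passed 2-fold too, so that 5 of the 6 members were over 2-fold higher, against 25.5% of all miRNAs higher and 23.9% lower. The split of all calls was 68 over 2-fold higher and 303 lower with RPM, and 165 and 155 with those size factors.

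The balance between the guides is free of the scaling, since it compares reads of 1 library. For each read of miR-182-5p there were 0.671 reads of miR-183-5p at P1 (exact 95% binomial interval 0.668 to 0.674), 0.451 at P7 (0.450 to 0.452) and 0.857 at P17 (0.855 to 0.859). The ratio was lowest at P7 and highest at P17, with a log2 change of -0.57 before P7 (exact 95% interval -0.58 to -0.57) and 0.93 after P7 (0.92 to 0.93). At each single step miR-96-5p kept closer to miR-182-5p. There were 0.215 reads of it per read of miR-182-5p at P1 (0.213 to 0.216), 0.229 at P7 (0.228 to 0.230) and 0.265 at P17 (0.264 to 0.266), log2 changes of 0.09 and 0.21. The ratio of miR-183-5p to miR-96-5p was 3.13 at P1, 1.97 at P7 and 3.24 at P17, log2 changes of -0.67 and 0.72. Over the whole period these opposite steps nearly cancelled, and the log2 change of miR-183-5p to miR-96-5p was 0.05 (exact 95% interval 0.04 to 0.06), below the 0.30 of miR-96-5p to miR-182-5p (0.29 to 0.31).

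Of the guide reads of the cluster, miR-182-5p thus had 53.0% at P1, 59.5% at P7 and 47.1% at P17. MiR-183-5p had 35.6%, 26.9% and 40.4%, and miR-96-5p had 11.4%, 13.6% and 12.5%. The share that miR-183-5p gained between P7 and P17 was therefore lost mainly by miR-182-5p.

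**Figure D3:**
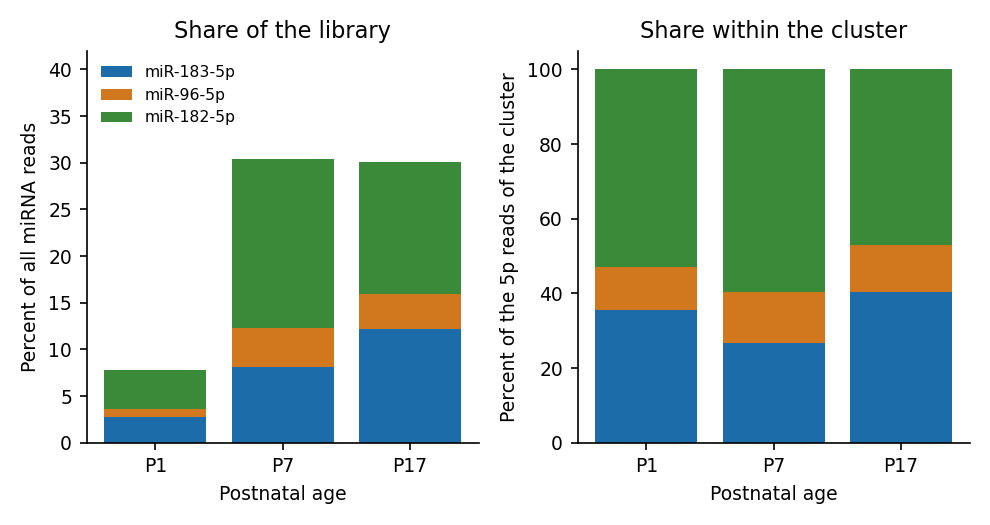
Stacked bars of the 3 guides at P1, P7 and P17, as a percent of all miRNA reads (left) and of the 5p reads of the cluster (right), 1 pooled library per age. The total height on the left goes from 7.79% to 30.4% and 30.1%, and on the right miR-183-5p goes from 35.6% to 26.9% and 40.4%.

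The passengers showed a smaller shift between miR-183 and miR-182. For each read of miR-182-3p there were 0.121 reads of miR-183-3p at P1 (0.112 to 0.131), 0.101 at P7 (0.0959 to 0.107) and 0.127 at P17 (0.119 to 0.136). The log2 change before P7 was -0.25 (exact 95% interval -0.39 to -0.11) and that after P7 was 0.33 (0.20 to 0.46), against -0.57 and 0.93 for the guides. The directions were the same and the sizes smaller. The intervals of the guides and passengers, which cover counting error only, did not overlap in either step. For miR-96-3p against miR-182-3p the ratio was 0.157 at P1, 0.118 at P7 and 0.107 at P17, so that it fell where that of the guides rose.

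The guides gained on their passengers at both steps in all 3 hairpins. MiR-183 had 454 reads of its 5p strand per 3p read at P1 (exact 95% binomial interval 422 to 490), 771 at P7 (731 to 814) and 1462 at P17 (1373 to 1559). MiR-96 had 112 at P1 (105 to 120), 335 at P7 (319 to 352) and 538 at P17 (502 to 577). MiR-182 had 81.8 at P1 (79.7 to 83.9), 173 at P7 (170 to 176) and 217 at P17 (213 to 222). In each hairpin the 3 intervals were apart from each other. They cover counting error only and are narrow at these read counts, so this does not show a change beyond the spread between libraries. How often the intervals of other hairpins were apart in the same way was not tested. The 5p strand outnumbered the 3p strand most in miR-183 and least in miR-182 in every library.

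The log2 change of the 5p to 3p ratio from P1 to P7 was highest in miR-96, at 1.58 (exact 95% interval 1.46 to 1.70), followed by miR-182 at 1.08 (1.04 to 1.13) and miR-183 at 0.76 (0.63 to 0.90). From P7 to P17 it was 0.92 for miR-183 (0.80 to 1.04), 0.68 for miR-96 (0.56 to 0.81) and 0.33 for miR-182 (0.29 to 0.37). MiR-96 and miR-182 made most of their gain before P7 and miR-183 slightly more of it after P7. Over the whole period the change was 2.26 for miR-96, 1.69 for miR-183 and 1.41 for miR-182, so that all 3 ratios were over 2-fold higher at P17.

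Both strands could be followed in this way in 190 hairpins of the series, the members included, in which both strands passed the filter under matching names. The 5p to 3p ratio was over 2-fold higher in 7.37% of them from P1 to P7, in 10% from P7 to P17 and in 19.5% from P1 to P17. The corresponding numbers for the members were 2, 0 and 3 of 3. The ratio was higher at both steps in 32.1% of the 190 hairpins and in all 3 members. From P1 to P17 the median change of all hairpins was 0.16 and the middle 90% lay between -1.90 and 1.77. The ratio rose more than in miR-96 in 6 hairpins, more than in miR-183 in 13 and more than in miR-182 in 21. Thus miR-96 lay outside the middle 90% and the other two lay near its upper end, inside it. Taken as the more read strand over the other, a choice made after the values were seen, the median change was 0.02, with 8, 15 and 22 hairpins above miR-96, miR-183 and miR-182.

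**Figure D4:**
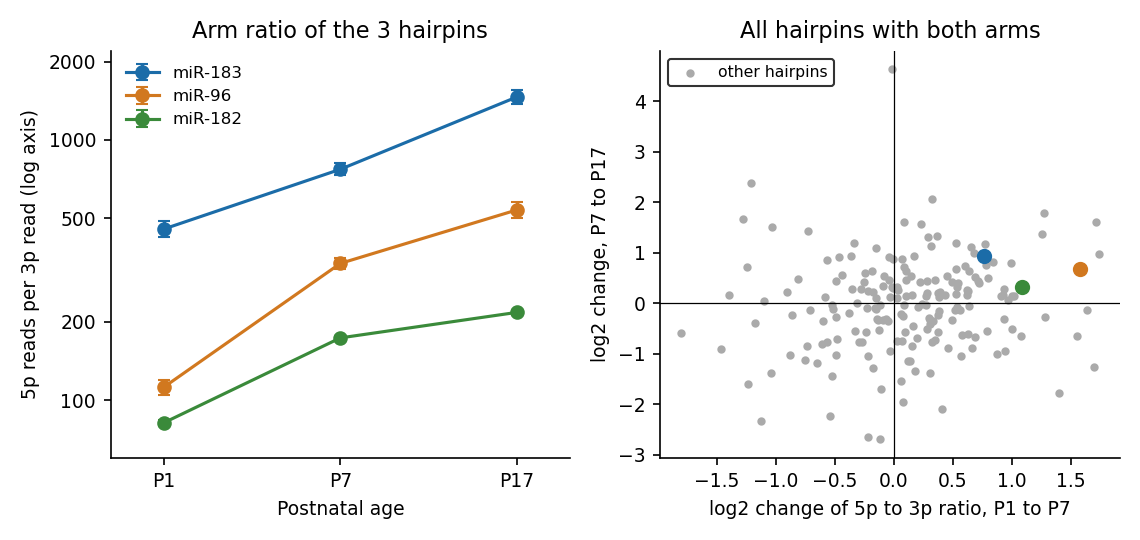
Left, 5p reads per 3p read (log axis) of the 3 hairpins at P1, P7 and P17 with exact 95% binomial intervals of counting error; right, log2 change of the 5p to 3p ratio from P1 to P7 against that from P7 to P17 for 190 hairpins, with the 3 members in the colours of the left panel. Each of the 3 lines goes up at both steps, and the 3 members lie at the upper right, where both changes are positive and where 61 of the 190 hairpins lie.

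Members of a cluster come from 1 primary transcript, and the guides of the miR-183 cluster changed to a similar extent over the whole period. The mean difference between pairs of its 3 guides was 0.24 on the log2 scale from P1 to P17, the smallest among 12 clusters in which at least 3 hairpins, at most 10 kb apart on 1 strand, had a measured strand of their own. The median over the 12 clusters was 1.03 and the largest was 2.16, for the miR-17-92 cluster. Within the period the members differed more, by 0.44 from P1 to P7 (place 5 of 12 from the smallest) and 0.62 from P7 to P17 (place 3 of 12). The clusters hold 3 to 33 miRNAs, and the strand used was the most read one that the reference gives to a single hairpin, so that for some clusters it was a passenger. From P1 to P17 the miR-23b cluster had 1.44 from miR-23b-5p (-1.51), miR-27b-3p (-0.08) and miR-24-1-5p (0.66). The strands left out, miR-23b-3p (0.23) and miR-24-3p (-0.15), lay closer to miR-27b-3p. Whether the miR-183 cluster keeps its first place with other strands was not tested. The comparison is a description without a test.

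The miRNAs most like the guides were sought among 425 others with a mean of at least 10 RPM, by the Euclidean distance of their 2 log2 changes from the mean of the 3 guides (1.97 before P7 and 0.03 after P7, over 3 libraries). The nearest was miR-1298-5p at a distance of 0.30, with 72, 353 and 407 reads in the 3 libraries. MiR-378d (0.40), miR-378a-3p (0.53) and miR-378c (0.54) followed, 3 near-identical miRNAs whose reads the counting could have split. MiR-195a-5p came next, in place 5 and farther off than the guides themselves, which lay 0.30 (miR-96-5p), 0.41 (miR-182-5p) and 0.69 (miR-183-5p) from their own mean. The most abundant of these 5, miR-378a-3p, had 595, 3018 and 4026 RPM and so was below the level of each guide.

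Of 8 other listed miRNAs known from retinal neurons, 0 were over 2-fold higher at P7 and 2 were over 2-fold lower, where 3.09% of all miRNAs were higher and 44.8% lower. Their median log2 change was -0.16 against -0.87 for all miRNAs. The 2 were miR-204-5p (-1.07) and miR-211-5p (-1.08), which like the miR-183 cluster are known to follow light in the retina. From P7 to P17, when the guides of the cluster stayed within 2-fold, 2 of the 8 were over 2-fold higher, miR-211-5p (4.36) and the neuronal miR-124-3p (2.64), against 14% of all miRNAs, and the median was 0.42 against -0.05. MiR-211-5p had 550, 259 and 5315 RPM in the 3 libraries, and miR-124-3p had 1544, 2055 and 12777 RPM. The largest change of these 2 thus came in the later interval and that of the 3 guides in the earlier one. MiR-9-5p (-0.20 and -0.76), miR-9-3p (-0.13 and -0.45), miR-181a-5p (0.49 and 0.47), miR-181b-5p (-0.04 and 0.12) and miR-125b-5p (-0.39 and 0.96) stayed within 2-fold at each step. With median-of-ratios size factors the first step of miR-9-5p, miR-9-3p, miR-181b-5p and miR-125b-5p turned positive, and miR-204-5p (-0.11) and miR-211-5p (-0.13) were no longer over 2-fold lower. The count from P1 to P7 was then 2 of 8 higher, miR-181a-5p (1.45) and miR-124-3p (1.37), and 0 lower, where 9.57% of all miRNAs were higher and 11% lower. From P7 to P17 miR-125b-5p (1.04) joined miR-211-5p and miR-124-3p, 3 of 8 higher, against 16% of all miRNAs higher and 10.6% lower.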

How the data were processed

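Small RNA libraries of the retina at P1, P7 and P17 were analysed, 1 per age. Adaptors and poor reads were removed by the authors, who according to the paper's methods aligned the clean reads to mm10 with HISAT2, whereas the submitters' processing notes name BWA and FastQC. The miRNA annotation and counting rule are not given in the sources used here. The deposited counts are raw reads per mature miRNA, and the deposited RPM values equal the count over the library's miRNA total, to within 0.0192 RPM.

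RPM was used as deposited, with a pseudocount of 1 RPM for log2 changes and a filter of a mean of at least 1 RPM (648 of 1915 miRNAs). A change over 2-fold was called, without a test, since 1 library per age gives no spread. The study's adjusted p-value criterion was therefore not applied. Intervals are Wilson for RPM, exact binomial for ratios and exact conditional for changes of ratios. Size factors used 644 miRNAs with reads in every library and were 1.50, 0.862 and 0.743. The TMM factors of edgeR were 1.60, 0.808 and 0.774. Alternatives were 4 other scalings, 3 pseudocounts, 2 filters, 1 read added to each strand and other cluster distances. Named miRNAs were the members, miRNAs sharing a seed, the 5 nearest in pattern, 8 miRNAs of retinal neurons, the most abundant of each library and tissue markers. MiR-99a-5p, miR-126a-3p and the limit of 1000 RPM were chosen after values were seen. Members and lists were chosen with earlier results of these data known. Sequences and positions came from RefSeq (GRCm38.p6), in which 1623 of 1915 names matched, and from GENCODE vM21.

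In data simulated for P1 to P7 with counting error only, all 200 miRNAs changed 4-fold were called, as were 4 of 464 unchanged ones, and 94.7% of the 95% intervals held the true ratio. The changed miRNAs were drawn only from those above a set level at P1, so that calling all of them follows largely from the settings. Differences between libraries of 1 age were not simulated. The software was edgeR 4.0.16 under R 4.3.3, and scipy 1.17.1, pandas 2.3.3, numpy 2.4.6 and matplotlib 3.10.9 under Python 3.11.15.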

Additional observations from a re-analysis of the deposited data

How the results depend on the processing

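The summed level of the 6 members kept its rise from P1 to P7 and from P1 to P17 under each of the 4 other scalings, and the amount depended on the scaling. Against 1.96 with RPM, the log2 change from P1 to P7 was 2.92 with median-of-ratios size factors, 2.95 with TMM factors, 2.59 with a total that leaves out each library's 10 most abundant miRNAs and 2.37 without the 6 members in the total. From P1 to P17, in the same order, it was 2.99, 2.99, 2.32 and 2.34 against 1.94. From P7 to P17 it was 0.067, 0.043, -0.263 and -0.0254 against -0.0177, so its sign depended on the scaling. Of 126 alternative values for single members, 65 moved beyond counting error, 0 of them by a pseudocount. MiR-96-3p from P1 to P17 was the only one to change sign, from -0.18 to between 0.20 and 0.85 under the 4 scalings. The number of miRNAs over 2-fold higher and lower from P1 to P7 was 62 and 71 with size factors, 63 and 69 with TMM factors and 39 and 185 without the members, against 20 and 290. From P1 to P17 both size factors and TMM factors gave 165 and 155, against 68 and 303. Hairpins with a 5p to 3p ratio over 2-fold higher numbered 14, 19 and 37 of 190 for P1 to P7, P7 to P17 and P1 to P17. With a filter of 10 RPM they numbered 5, 11 and 24, and without a filter 32, 35 and 54. The filter also changes how many hairpins are counted, so these counts are not shares of the same total. The 5p to 3p ratios of the members did not move beyond counting error when 1 read was added to each strand. With hairpins up to 50 kb apart, the cluster came in place 5 of 13 instead of 3 of 12 by the spread of its changes from P7 to P17, and in place 7 of 13 instead of 5 of 12 from P1 to P7. A distance of 3 kb gave no value, since it parts miR-182 from the others. Depth limits the passengers most, where 697 to 1579 reads lie behind miR-183-3p and miR-96-3p. No paired analysis was possible because there is a single library at every age.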
